A study of Mus musculus with 60 samples.

Results

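IL6-iMHs of mouse-1 at passage 35 (P35) were compared with IL6-iMHs of the same line at passage 10 (P10), gene by gene. IL6-iMHs are hepatocyte-like cells obtained by maturing IL6-iHPCs. The study describes IL6-iHPCs as proliferating progenitor-like cells into which mouse hepatocytes convert when cultured with IL6. The genes compared were those with at least 1 FPKM (fragments mapped to a gene, scaled to transcript length and library depth) in 3 or more of the 6 samples, which kept 10166 of the 19357 genes listed, or 52.5%. Each passage had 3 samples. The study describes them as technical repeats, so errors and p-values here cover the spread between repeats and not the spread between animals or lines. The spread of each gene was estimated jointly from the repeats of all 11 groups (33 samples), not from these 6 samples alone.

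Both groups were wild-type C57BL/6 mouse liver cells, and they differed in the passage number of the IL6-iHPCs from which they were matured. IL6-iHPCs were grown in a medium with EGF, HGF, dexamethasone and IL6. Once nearly confluent they were moved to a maturation medium that held dexamethasone and oncostatin M, a cytokine that signals through the same gp130 receptor chain as IL6, and no IL6. The same passages of mouse-1 sampled as IL6-iHPCs, before maturation, gave the passage comparison in unmatured cells. IL6-iMHs of mouse-2 at P10, IL6-iMHs of clone-1 at P20 (grown from 1 hepatocyte) and hepatocytes, each with 3 samples, are given as levels beside the named genes. Only 1 line was sampled at both passages, so passage cannot be told apart from anything else that differed between these 2 sets of cultures.

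Hepatocytes make most plasma proteins, among them albumin, clotting factors, complement and apolipoproteins, and they dispose of ammonia through the urea cycle. During inflammation IL6 activates STAT3 in hepatocytes through gp130, and STAT3 raises the acute phase proteins, such as serum amyloid A, orosomucoid and fibrinogen. Hepatocytes also clear drugs and toxins in steps: cytochromes P450 oxidise them, and phase II enzymes attach glutathione, glucuronic acid or sulfate. Cultured hepatocytes tend to lose these functions as they proliferate, which is why a maturation step follows expansion.

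The 6 libraries held 5.49e+07 to 8.89e+07 reads, as recovered from the steps in the FPKM values. P10 replicate 2 stood apart from the other libraries of its group (r = 0.991 and 0.992 across genes, against 0.997 between the other pair). Of the 762 changed genes, 761 had P10 and P35 values that did not overlap, against 59.7% of all genes tested. The changed genes were selected on these same samples, so their lack of overlap is no separate support for the calls.

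Between the passages 6372 of 10166 genes differed at an adjusted p under 0.05 in limma, most by less than 2-fold. At an adjusted p under 0.05 and at least 2-fold on the log2(FPKM + 1) scale, 762 of 10166 genes changed (7.5%), of which 438 were higher (4.31%) and 324 lower (3.19%) at P35. The median log2 difference over all genes tested was 0.01, with quartiles of -0.27 and 0.30. At least 4-fold differences were met by 75 higher and 76 lower genes. As a yardstick, 733 genes (7.21%) differed between IL6-iMHs of mouse-2 and mouse-1, both at P10, 99 higher (0.974%) and 634 lower (6.24%) in mouse-2, a comparison that shares the P10 samples of mouse-1. Its size and its split depend on the scaling. It gave 438 genes with samples centred on their median, 180 higher and 258 lower, and 303 with quantile normalization, 115 higher and 188 lower, where the passage comparison gave 749 and 707. Of the 199 named genes that were called, 174 were called in every alternative fit that tested them. The others lay close to 2-fold and lost the call under another scaling or without 1 library, among them Abcc4, Afp, Amotl2, Anxa1, Bcl3, C1ra, C2, Car9, Cfb, Col4a1, Col4a5, Ddit4, Fasn, Fgfr2, Fosb, Gss, Gstm3, Krt19, Mup3, Phlda2, Phlda3, Tead4 and Tef.

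The lists with the most falls were acute phase genes (14 of 21 tested), clotting factors (11 of 22) and amino acid breakdown (8 of 28). Those with the most rises were phase II enzymes (19 of 31), collagens and matrix (9 of 16) and immediate early genes (6 of 15) with amino acid stress genes (6 of 20). Of 20 hepatocyte transcription factors 1 was called, where 7.5% of all genes tested were, and albumin was not called.

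**Figure D1:**
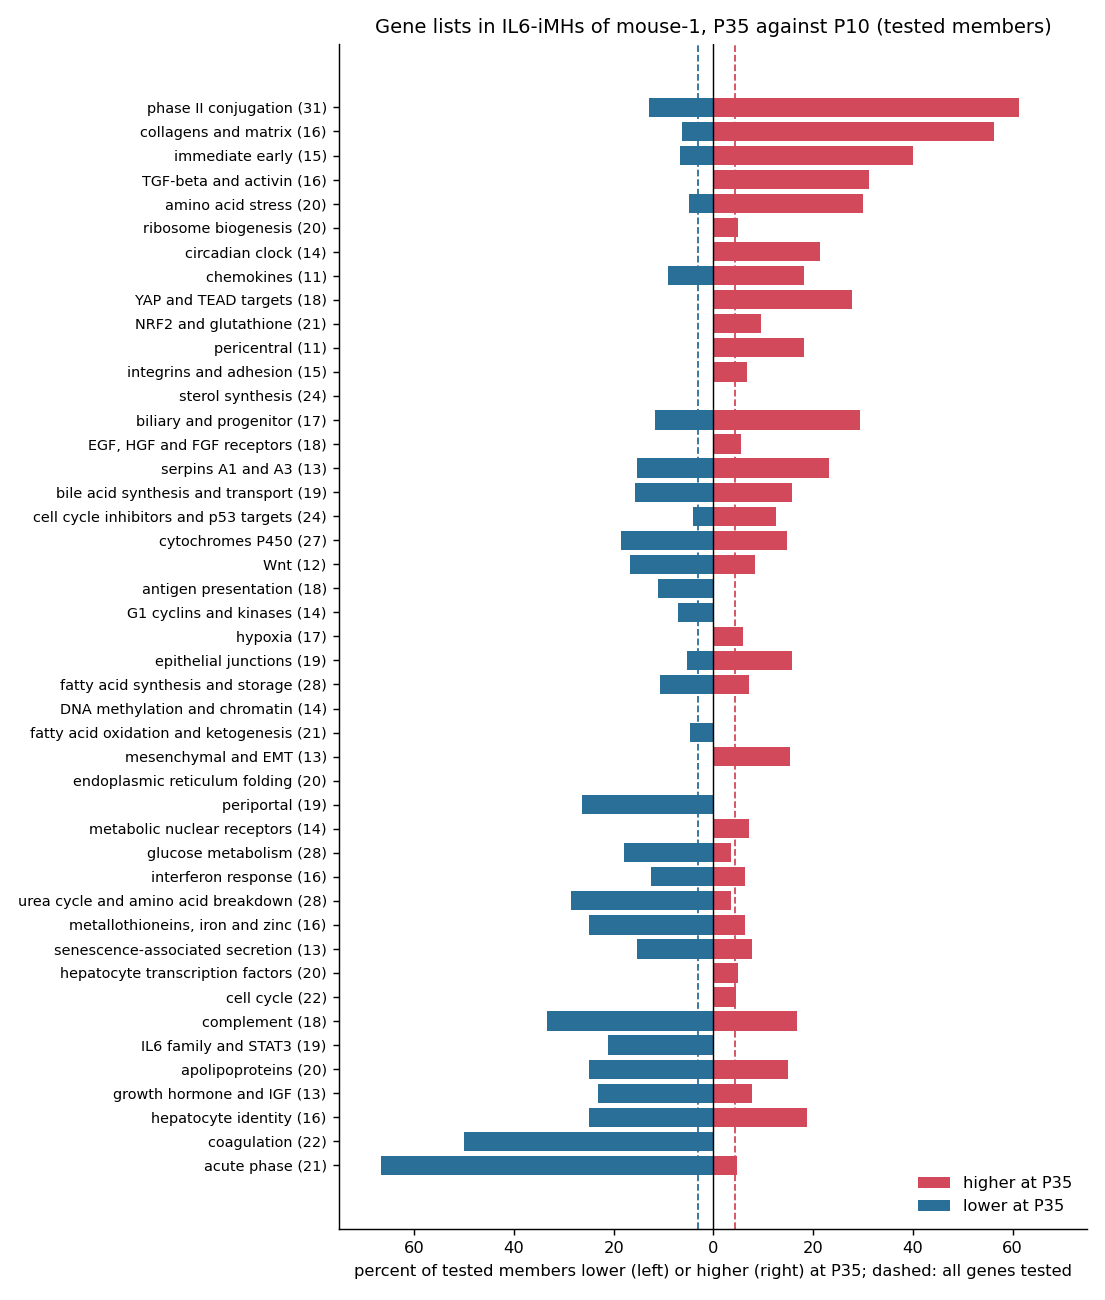
Share of tested members that were lower (blue, to the left) or higher (red, to the right) at P35 in IL6-iMHs of mouse-1, in percent, for gene lists with at least 10 tested members, with the number tested in brackets and the lists in order of their median log2 difference. The dashed lines mark all genes tested (3.19% lower and 4.31% higher), and acute phase (14 of 21 lower) and phase II conjugation (19 of 31 higher) reach farthest from them among these lists.

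The hepatocyte label was checked first. Alb, which encodes albumin, read 60214, 55472 and 60880.0 FPKM at P10 and 55562, 58912 and 49049 FPKM at P35 (log2 difference -0.11 ± 0.11, adjusted p = 0.37). The samples of both passages overlapped. The level in hepatocytes was 50010.0 ± 3332 FPKM (SD, n = 3). Of the 16 hepatocyte identity genes, 3 rose and 4 fell, with a median log2 difference of -0.41 (from -0.49 to -0.08 over 15 settings). Those that fell were Tat, Fgb, Cyp3a11 and Cps1, and those that rose were Serpina1c, Asgr1 and Cyp2e1. Fah, the last enzyme of tyrosine breakdown, read 291, 337 and 302 FPKM at P10 and 273, 278 and 305 FPKM at P35, and these ranges overlapped as well (log2 difference -0.12 ± 0.10, adjusted p = 0.32). Glul, glutamine synthetase, a marker of hepatocytes around the central vein, went from a mean of 41.8 to 36.2 FPKM and was not called (log2 difference -0.20 ± 0.057, adjusted p = 0.0032).

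Hnf4a, the transcription factor that maintains hepatocyte identity, read 195, 194 and 173 FPKM at P10 and 281, 274 and 273 FPKM at P35. All P35 samples were above all P10 samples, but the difference did not reach 2-fold (log2 difference 0.56 ± 0.057, adjusted p = 1.3e-09). Of the 20 hepatocyte transcription factors only Cebpb was called, where 7.5% of all genes tested were. With a pseudocount of 0.1 or with voom 2 of these factors rose and 1 fell. Cebpb, which drives acute phase genes together with STAT3, read 73.5, 56.02 and 20.7 FPKM at P10 and 159.7, 145 and 171 FPKM at P35 (log2 difference 1.82 ± 0.32, adjusted p = 1.4e-05). The P10 samples spread widely, and all were below the P35 samples. Both genes lie on distal chromosome 2, a stretch described further on.

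**Figure D2:**
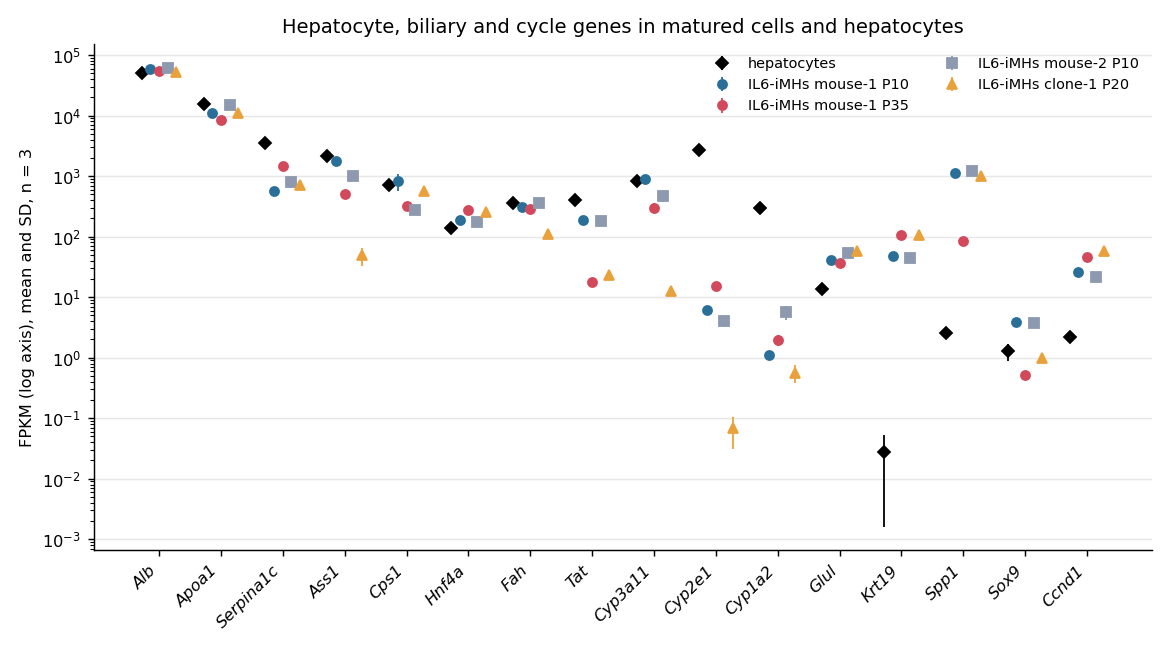
Mean FPKM with SD (n = 3 samples, log axis) of hepatocyte, biliary and cycle genes in hepatocytes (black), IL6-iMHs of mouse-1 at P10 (blue) and P35 (red), IL6-iMHs of mouse-2 at P10 (grey) and of clone-1 at P20 (orange). Alb, Fah and Glul of mouse-1 nearly coincide at P10 and P35, whereas Tat and Spp1 are more than 10 times lower at P35.

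The acute phase list had the lowest median of the lists. Of its 21 tested members 14 fell, 1 rose and 6 were not called, with a median log2 difference of -2.03 against 0.01 for all genes. Saa2, a serum amyloid A carried on lipoproteins, read 88.9, 103 and 132 FPKM at P10 and 2.78, 4.001 and 3.28 FPKM at P35 (log2 difference -4.63 ± 0.15, adjusted p = 8.4e-21). Orm2, an orosomucoid that binds drugs in plasma, read 113, 109 and 157 FPKM at P10 and 3.86, 4.47 and 4.14 FPKM at P35 (log2 difference -4.61 ± 0.12, adjusted p = 4.1e-23). In both, every P35 sample was more than 10 times below every P10 sample.

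Saa1 fell from a mean of 259 to 21.2 FPKM (log2 difference -3.58 ± 0.19, adjusted p = 5.5e-16). The protease inhibitor Serpina3n went from 2783 to 338 FPKM (log2 difference -3.03 ± 0.12, adjusted p = 5.6e-19). The matrix-stabilising inter-alpha-trypsin inhibitor chain Itih4 went from 173 to 22.4 FPKM, and Steap4, a metalloreductase, from 120.1 to 13.7 FPKM. The fibrinogen chains fell together, Fgb reading 4256, 4126 and 4262 FPKM at P10 and 864, 1033 and 901 FPKM at P35 (log2 difference -2.18 ± 0.076, adjusted p = 2.2e-20). Orm1, Lcn2, Hpx, Cp and Saa4 also fell, by log2 differences between -2.24 and -1.07. Saa1 and Saa2, and Orm1 and Orm2, are near-identical copies between which reads may be split.

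Some acute phase genes kept a high level. Hp, haptoglobin, which binds free haemoglobin, went from a mean of 11677 to 8188 FPKM and was not called (log2 difference -0.51 ± 0.09, adjusted p = 1.4e-05). Crp went from 304 to 262 FPKM with overlapping samples (log2 difference -0.21 ± 0.11, adjusted p = 0.1). Saa3, the serum amyloid A made in many tissues outside the liver, moved the other way and read 10.997, 6.87 and 8.29 FPKM at P10 and 125, 157 and 126 FPKM at P35 (log2 difference 3.83 ± 0.25, adjusted p = 1.0e-13). All P35 samples of Saa3 were more than 10 times above the highest P10 sample. In clone-1 at P20 it stood at 385 ± 26.1 FPKM, and in mouse-2 at P10 at 11.6 ± 2.12 FPKM (SD, n = 3 each).

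STAT3 dimers bind palindromes of the form TTCNNNGAA in the promoters of many acute phase genes. The promoter table of RefSeq (GRCm38.p6) matched 17 of the 21 tested acute phase genes, of which 5 held the motif. Of the 14 that fell it matched 13, and 4 held this motif (on either strand, since it reads the same on both) in the 250 bases before the start, namely Fga, Fgb, Itih4 and Steap4. Over all 32851 promoters of that table, which belong to 27025 genes, the share was 7.02%. That share counts single promoters, whereas a listed gene counted if any of its promoters held the motif. The shares are therefore not directly comparable. Of the 18 matched members of the IL6 family and STAT3 list 1, Socs3, held it. The 250 bases before the start of Fgb, Itih4 and Socs3 are shown because these genes fell and carry the motif, which is in capitals. A match describes the letters and not binding, which was not measured.
Fgb, chr3:83049864-83050113, minus strand: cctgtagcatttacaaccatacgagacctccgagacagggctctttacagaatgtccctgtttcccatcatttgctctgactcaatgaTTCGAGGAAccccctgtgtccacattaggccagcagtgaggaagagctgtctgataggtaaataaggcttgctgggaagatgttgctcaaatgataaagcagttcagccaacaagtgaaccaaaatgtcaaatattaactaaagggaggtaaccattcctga
Itih4, chr14:30886226-30886475, plus strand: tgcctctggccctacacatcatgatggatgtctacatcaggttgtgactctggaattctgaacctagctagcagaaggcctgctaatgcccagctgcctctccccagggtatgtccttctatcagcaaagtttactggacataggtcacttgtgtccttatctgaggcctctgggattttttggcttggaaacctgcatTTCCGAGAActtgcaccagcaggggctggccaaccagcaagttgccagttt
Socs3, chr11:117969367-117969616, minus strand: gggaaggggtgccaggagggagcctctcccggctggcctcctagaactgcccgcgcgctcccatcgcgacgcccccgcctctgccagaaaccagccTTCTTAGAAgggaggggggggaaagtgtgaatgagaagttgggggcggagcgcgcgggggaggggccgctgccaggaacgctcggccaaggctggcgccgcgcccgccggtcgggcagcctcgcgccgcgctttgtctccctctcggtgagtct
The motif begins 162, 51 and 154 bases before the start of Fgb, Itih4 and Socs3, respectively.

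Among the 19 tested genes of the IL6 family and STAT3, 4 fell and none rose, with a median of -0.31 (from -0.39 to -0.15 over 15 settings). Of these genes 2 fell without P10 replicate 2, without P35 replicate 2 or with quantile normalization. Without P10 replicate 3, 3 fell and 1 rose. Socs3, the feedback inhibitor that STAT3 itself induces, read 11.4, 12.1 and 11.9 FPKM at P10 and 3.26, 3.19 and 2.87 FPKM at P35 (log2 difference -1.64 ± 0.065, adjusted p = 6.8e-19). Osmr, the receptor chain specific to oncostatin M, was low and read 2.51, 3.1 and 2.32 FPKM at P10 and 0.519, 0.447 and 0.329 FPKM at P35 (log2 difference -1.34 ± 0.089, adjusted p = 1.1e-13). Neither overlapped between passages. Bcl3 also fell, by a log2 difference of -1.03. The common receptor chain Il6st, which encodes gp130, went from a mean of 26.5 to 18.3 FPKM, Stat3 from 48.2 to 30.3 FPKM and the IL6 receptor Il6ra from 24.98 to 22.8 FPKM, none of them called. Phosphorylated STAT3 was not measured in these files.

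Of 16 tested interferon response genes, Ifitm3 fell from 265 to 55.8 FPKM and Stat2 from 18.7 to 5.4 FPKM, Oas1a rose from 1.61 to 5.31 FPKM, and 13 were not called.

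Many clotting factors fell as well. Of 22 tested genes 11 fell and none rose, with a median of -0.97. F10, which generates thrombin, read 51.2, 58.4 and 67.8 FPKM at P10 and 10.1, 12.3 and 10.3 FPKM at P35 (log2 difference -2.33 ± 0.084, adjusted p = 5.1e-20). F7, which starts the extrinsic pathway, fell from a mean of 26.1 to 4.74 FPKM, and Plg, plasminogen, from 174 to 35.8 FPKM. F11, F12, F9, Pros1 and Serpinf2 fell by log2 differences between -1.74 and -1.30, and the 3 fibrinogen genes belong to this list too.

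Complement was split. Of 18 tested genes 6 fell, 3 rose and 9 were not called (median -0.30), but with quantile normalization none of the 3 rises (Cfb, C1ra and C2) was called. Cfb, an activator of the alternative pathway, read 261, 252 and 261 FPKM at P10 and 534, 567 and 537 FPKM at P35 (log2 difference 1.08 ± 0.059, adjusted p = 1.3e-15). The terminal components C6, C8a and C8b fell, C6 from a mean of 26.02 to 2.92 FPKM. Of the early components, C1ra rose from 69.1 to 151 FPKM and C2 from 24.2 to 51.1 FPKM, and Masp2 fell from 4.76 to 1.58 FPKM. The C1 inhibitor Serping1 fell from 181 to 48.9 FPKM.

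**Figure D3:**
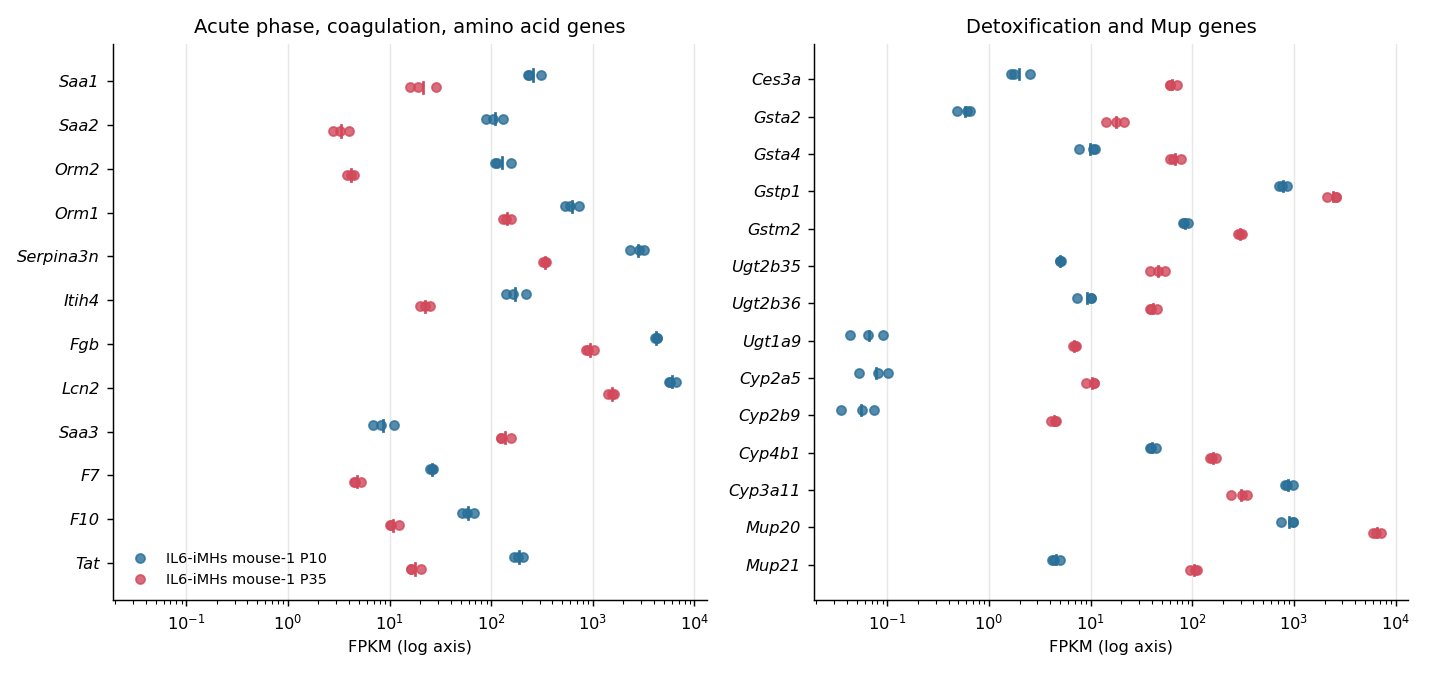
FPKM (log axis) of named genes in each of the 3 P10 (blue) and 3 P35 (red) samples of IL6-iMHs of mouse-1, with a bar at the mean. The left panel shows 12 acute phase, clotting and amino acid genes, of which only Saa3 is higher at P35, and the right panel shows 14 detoxification and Mup genes, of which only Cyp3a11 is lower at P35.

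Amino acid breakdown was the metabolic list with the most falls. Of 28 tested genes 8 fell and 1 rose (median -0.22). Ass1, the urea cycle enzyme that joins citrulline and aspartate, read 1490.2, 2019 and 1837 FPKM at P10 and 469, 556 and 512 FPKM at P35 (log2 difference -1.79 ± 0.16, adjusted p = 4.6e-11). Cps1, which fixes ammonia, went from a mean of 819 to 315 FPKM. The hepatocytes had 2141 ± 201 FPKM of Ass1 (SD, n = 3), so P35 lay farther from them than P10 did.

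Tat, which opens tyrosine breakdown and is induced by glucocorticoids, read 169, 207 and 185 FPKM at P10 and 16.2, 20.6 and 16.3 FPKM at P35 (log2 difference -3.33 ± 0.082, adjusted p = 6.7e-24). Tdo2, the first enzyme of tryptophan breakdown, fell from 574 to 110.1 FPKM. Bhmt, which remethylates homocysteine, fell from 359 to 62.4 FPKM. Prodh, proline dehydrogenase, was the single gene of this list that rose and read 19.6, 18.2 and 19.6 FPKM at P10 and 85.4, 97.96 and 95.3 FPKM at P35 (log2 difference 2.22 ± 0.10, adjusted p = 1.2e-17). Uox, urate oxidase, which rodents use to degrade uric acid, was outside the lists and among the largest falls, reading 85.8, 86.3 and 97.4 FPKM at P10 and 3.16, 4.92 and 4.42 FPKM at P35 (log2 difference -4.15 ± 0.10, adjusted p = 1.1e-23).

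In glucose metabolism 5 of 28 tested genes fell and 1 rose. Pygl read 15.9, 20.98 and 17.6 FPKM at P10 and 5.03, 4.3 and 4.43 FPKM at P35 (log2 difference -1.77 ± 0.10, adjusted p = 2.3e-15). Pygl and Gys2, the liver enzymes that break down and build glycogen, both fell, Gys2 from 79.1 to 30.9 FPKM. Ppargc1a, a coactivator of gluconeogenesis, was low and fell from 2.63 to 0.436 FPKM. Pck2, the mitochondrial PEP carboxykinase, rose from 28.7 to 88.4 FPKM.

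Lipid genes moved in both directions. Lcat, which esterifies cholesterol on HDL, fell from 123 to 25.4 FPKM (log2 difference -2.23 ± 0.11, adjusted p = 7.4e-17), as did Apof from 159 to 36.7 FPKM and Apoc3 from 2742 to 1156 FPKM. Apoa5, an activator of lipoprotein lipase, rose from 6.54 to 24.97 FPKM and Apoa2 from 35.1 to 88.9 FPKM. In all, 5 of 20 apolipoprotein and lipid transfer genes fell and 3 rose. Lpl, lipoprotein lipase, which hepatocytes of adult liver hardly express, read 0.495, 0.408 and 0.518 FPKM at P10 and 19.5, 16.2 and 18.1 FPKM at P35 (log2 difference 3.68 ± 0.076, adjusted p = 1.0e-25). All P35 samples of Lpl were more than 10 times above all P10 samples.

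Among 28 genes of fatty acid synthesis and storage, Thrsp, a lipogenic regulator, fell from 42.7 to 4.28 FPKM, Fabp4 from 341 to 96.9 FPKM and Scd1 from 204 to 81.2 FPKM. The lipid droplet gene Cidec rose and read 34.9, 33.02 and 33.9 FPKM at P10 and 177, 189.6 and 179 FPKM at P35 (log2 difference 2.39 ± 0.10, adjusted p = 4.9e-18), and Fasn, fatty acid synthase, rose from 18.7 to 40.9 FPKM. Of 24 sterol synthesis genes none was called, though 19 had a positive difference (median 0.25). Of 21 genes of fatty acid oxidation and ketogenesis 1 fell and none rose, and none fell without P10 replicate 2 or P35 replicate 1.

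For bile acids, 3 of 19 tested genes fell and 3 rose. Cyp8b1, which makes cholic acid, fell from 5.1 to 1.21 FPKM, the uptake carrier Slc10a1 from 37.99 to 16.3 FPKM and the efflux subunit Slc51b from 6.06 to 0.667 FPKM. The sterol exporters Abcg5 and Abcg8 rose from 1.72 to 7.56 FPKM and from 0.868 to 4.52 FPKM, and Abcc4 from 2.34 to 5.68 FPKM. Slc10a2, the bile salt carrier of ileum and bile ducts, was one of the 12 largest falls and read 15.9, 15.2 and 16.2 FPKM at P10 and 0.73, 0.347 and 0.388 FPKM at P35 (log2 difference -3.50 ± 0.10, adjusted p = 4.1e-22).

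Phase II conjugation had more members called higher than any other list. Of 31 tested genes 19 rose, 4 fell and 8 were not called, with a median log2 difference of 1.23. The list's summed level was 3968 to 4642 FPKM in the P10 samples and 6945 to 8194 FPKM in the P35 samples.

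Glutathione S-transferases were the largest part of it. Gstp1 read 769.7, 707 and 855 FPKM at P10 and 2114, 2608 and 2585 FPKM at P35 (log2 difference 1.64 ± 0.13, adjusted p = 2.6e-12), and Gsta3 went from a mean of 384 to 1068 FPKM. Gsta2, low at P10, read 0.481, 0.606 and 0.649 FPKM at P10 and 14.2, 21.4 and 17.7 FPKM at P35 (log2 difference 3.55 ± 0.10, adjusted p = 7.4e-23). Gsta4, which conjugates products of lipid peroxidation, rose from 9.8 to 67.3 FPKM, and Gstm1, Gstm2, Gstm3, Gstt1, Gstt2, Gstt3 and Gsta1 rose by log2 differences between 1.08 and 2.70.

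Several glucuronosyltransferases rose too. Ugt2b35 read 5.07, 4.96 and 4.97 FPKM at P10 and 46.2, 53.6 and 37.99 FPKM at P35 (log2 difference 2.95 ± 0.095, adjusted p = 3.4e-21), and Ugt2b36 went from 9.12 to 41.03 FPKM, Ugt2b5 from 8.15 to 34.9 FPKM and Ugt1a9 from 0.0664 to 6.92 FPKM. These families hold near-identical genes whose reads may be split between copies. The 4 members that fell included Sult1e1, the estrogen sulfotransferase, from 8.02 to 0.218 FPKM, and the methyltransferases Nnmt and Tpmt, Nnmt from 81.2 to 34.6 FPKM. Of the 31 genes 20 (64.5%) were closer to the hepatocyte level at P35 than at P10, against 44.5% of all genes tested.

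Cytochromes P450 were divided. Of 27 tested genes 4 rose and 5 fell (median 0.18). Cyp2a5, which oxidises coumarin, read 0.0525, 0.101 and 0.0809 FPKM at P10 and 9.04, 10.8 and 10.9 FPKM at P35 (log2 difference 3.38 ± 0.085, adjusted p = 1.1e-23), and Cyp2b9 went from 0.0553 to 4.38 FPKM. Cyp4b1 rose from 40.5 to 159.8 FPKM. Cyp3a11, the main drug-metabolising Cyp3a enzyme of mouse liver, read 856, 824 and 972 FPKM at P10 and 311, 349 and 242 FPKM at P35 (log2 difference -1.57 ± 0.14, adjusted p = 1.2e-10). Cyp2j5 fell from 121 to 35.8 FPKM. Cyp2e1 rose from 6.15 to 15.4 FPKM and remained far below the hepatocytes at 2733 ± 142 FPKM (SD, n = 3). Cyp1a2, used by the study as a marker of maturity, read 1.23, 1.08 and 1.07 FPKM at P10 and 1.58, 1.98 and 2.39 FPKM at P35 and was not called (log2 difference 0.48 ± 0.16, adjusted p = 0.0092), with 297 ± 23.1 FPKM in hepatocytes (SD, n = 3).

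Ces3a, a liver carboxylesterase that hydrolyses triglycerides and ester drugs, had the second largest rise. It read 1.75, 2.52 and 1.64 FPKM at P10 and 60.1, 60.9 and 70.2 FPKM at P35 (log2 difference 4.45 ± 0.091, adjusted p = 1.0e-25). The P35 samples were all above 60 FPKM and the P10 samples all under 3 FPKM. Hepatocytes held 1231 ± 103 FPKM (SD, n = 3).

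Major urinary proteins carry pheromones and are made by adult liver under growth hormone. All 3 tested members rose. Mup20 read 990.1, 741 and 975 FPKM at P10 and 6475, 7215 and 5946 FPKM at P35 (log2 difference 2.87 ± 0.23, adjusted p = 5.0e-12), Mup21 went from 4.52 to 104 FPKM (log2 difference 4.25 ± 0.11, adjusted p = 2.8e-23) and Mup3 from 395 to 867 FPKM (log2 difference 1.14 ± 0.15, adjusted p = 1.5e-07). The other 18 members were under the filter, 15 of them at 0 in all 6 samples. Mup genes are near-identical, so a listed 0 may reflect how reads were assigned. In hepatocytes Mup20 stood at 2206 ± 237 FPKM (SD, n = 3), below the P35 level. Among the members under the filter, hepatocytes held Mup7 at 5811 FPKM and Mup12 at 3151 FPKM, both at 0 in all 6 samples. The hepatocytes also expressed Y-linked genes that were at 0 in these samples, as given further on. Of the growth hormone and IGF list, Igf1, Igfbp1 and Igfbp3 fell, Igfbp1 from 914 to 359.6 FPKM, and Igf2, the fetal growth factor, rose from 0.0604 to 6.9 FPKM.

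Serpins of the A1 and A3 clusters were mixed, with 3 higher and 2 lower of 13. Serpina1c and Serpina1d, alpha-1-antitrypsins, rose from 564 to 1492 FPKM and from 324 to 1158 FPKM. Metallothioneins bind zinc and copper, and Mt1, Mt2 and the rarer Mt4 fell. Mt4 had the largest fall of any gene on the log2(FPKM + 1) scale and read 35.97, 26.7 and 35.7 FPKM at P10 and 0.186, 0 and 0.082 FPKM at P35 (log2 difference -4.95 ± 0.21, adjusted p = 1.8e-18), while Mt1 went from 4271 to 1365 FPKM and Mt2 from 2850.3 to 769 FPKM. Of 16 tested genes of metal handling 4 fell and 1, the iron exporter Slc40a1, rose.

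Immediate early genes respond within minutes to growth factors and handling. Of 15 tested 6 rose and 1 fell (median 0.68). Fos read 1.72, 1.49 and 2.07 FPKM at P10 and 35.3, 63.96 and 38.3 FPKM at P35 (log2 difference 4.04 ± 0.13, adjusted p = 7.7e-21), and Egr1 read 6.59, 7.5 and 5.68 FPKM at P10 and 75.8, 133 and 86.6 FPKM at P35 (log2 difference 3.68 ± 0.18, adjusted p = 9.6e-17). In both genes P35 replicate 2 was the highest sample, and all P35 samples exceeded all P10 samples. Ier2, Zfp36, Fosb and Nr4a1 rose, Ier2 from 15.3 to 66.7 FPKM, and Ier3 fell from 62.4 to 28.3 FPKM. Egr1 stood at 75.1 ± 10.2 FPKM in IL6-iMHs of mouse-2 at P10 (SD, n = 3), the same passage at which mouse-1 had 6.59 ± 0.913 FPKM (SD, n = 3). Whether handling or harvest differed between cultures was not tested.

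Id1 and Id3, inhibitors of DNA binding that respond to BMP, led the TGF-beta and activin list, in which 5 of 16 genes rose and none fell. Id3 read 0.13, 0.103 and 0.2 FPKM at P10 and 14.97, 16.95 and 15.6 FPKM at P35 (log2 difference 3.88 ± 0.13, adjusted p = 1.3e-20), and Id1 went from 15.04 to 106 FPKM. Bmp4, a ligand of the pathway, rose from 5.21 to 14.2 FPKM. In the Notch list 3 of 7 rose, the receptor Notch1, the ligand Jag1 and the target Hes1, Hes1 from 3.3 to 10.2 FPKM. Id1 and Jag1 lie on distal chromosome 2.

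Of 16 tested collagen and matrix genes 9 rose, 1 fell and 6 were not called (median 1.03), where 4.31% of all genes tested rose. Lamb3, a laminin chain of epithelial anchoring, read 1.51, 1.65 and 1.27 FPKM at P10 and 21.8, 17.4 and 20.5 FPKM at P35 (log2 difference 3.07 ± 0.10, adjusted p = 2.8e-21). Lamb2 went from 16.9 to 55.2 FPKM and Lama5, which lies on distal chromosome 2, where most genes were higher at P35, from 14.4 to 44.1 FPKM, and the type IV collagens Col4a1, Col4a2 and Col4a5 rose by log2 differences between 1.01 and 1.13. The collagen-crosslinking enzyme Lox fell and read 16.7, 23.99 and 13.5 FPKM at P10 and 3.75, 2.25 and 2.52 FPKM at P35 (log2 difference -2.29 ± 0.14, adjusted p = 1.0e-14). Of the 16 genes 2 were closer to hepatocytes at P35 than at P10. The YAP and TEAD targets Ctgf, Cyr61, Axl, Amotl2 and Tead4 rose, 5 of 18 with none lower, Ctgf from 88.99 to 256 FPKM and Cyr61 from 6.99 to 28.5 FPKM. Amotl2 and Tead4 lay close to 2-fold, and 3 of the 18 rose without P35 replicate 3 or with samples centred on their median.

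The biliary and progenitor markers split. Krt19, a keratin of bile duct cells, read 53.4, 40.4 and 50.2 FPKM at P10 and 123, 102 and 95.7 FPKM at P35 (log2 difference 1.14 ± 0.12, adjusted p = 3.2e-09), and Krt7 rose from 3.89 to 18.3 FPKM. Sox9, the transcription factor of ductal and progenitor cells, read 3.72, 4.54 and 3.45 FPKM at P10 and 0.544, 0.444 and 0.549 FPKM at P35 (log2 difference -1.69 ± 0.10, adjusted p = 5.1e-15). Spp1, osteopontin, read 1095, 1044 and 1215 FPKM at P10 and 82.1, 90.9 and 85.2 FPKM at P35 (log2 difference -3.68 ± 0.11, adjusted p = 6.0e-22), more than 10 times lower at P35. The hepatocytes had 2.56 ± 0.368 FPKM of Spp1 (SD, n = 3). In all, 5 of 17 tested members rose and 2 fell.

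Amino acid stress genes, which ATF4 induces when amino acids run short, rose in 6 of 20 tested and fell in 1. Phgdh, the first enzyme of serine synthesis, read 20.7, 18.4 and 25.3 FPKM at P10 and 83.1, 92.3 and 97.4 FPKM at P35 (log2 difference 2.04 ± 0.093, adjusted p = 1.6e-17). Gdf15, a stress hormone, rose from 16.8 to 77.7 FPKM, Aldh1l2 from 2.23 to 9.98 FPKM and Chac1, on the same part of chromosome 2 as Lama5, from 13.3 to 38.4 FPKM. Ddit4, an inhibitor of mTORC1, fell from 164 to 80.9 FPKM. In the endoplasmic reticulum folding list none of 20 was called. Of the NRF2 and glutathione genes 2 of 21 rose, Nqo1 from 0.59 to 4.03 FPKM and Gss from 43.5 to 90.9 FPKM.

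Of 14 circadian clock genes 3 rose, all outputs or repressors that cycle with a large amplitude in liver. Nr1d1, which encodes the repressor REV-ERB alpha, read 5.18, 9.04 and 5.71 FPKM at P10 and 28.4, 27.6 and 35.1 FPKM at P35 (log2 difference 2.06 ± 0.17, adjusted p = 8.6e-12), and Dbp and Tef went from 12.4 to 38.2 FPKM and from 36.5 to 79.1 FPKM. The hour of harvest was not given in the sources used here, and its part was not tested.

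Cell cycle genes were low in the matured cells, and 22 of 45 passed the filter. Of these only E2f1 was called, rising from 4.43 to 11.4 FPKM, and the median log2 difference of -0.26 changed sign under some settings. Ccnb1, Ccnb2 and Plk1 were called lower with a pseudocount of 0.1 and with voom, Ccnb1 and Ccnb2 also with quantile normalization or without P10 replicate 2, and 1 of both with samples centred on their median or without P35 replicate 2 or 3. Ccnd1, cyclin D1, went from a mean of 25.9 to 45.4 FPKM and was not called (log2 difference 0.79 ± 0.088, adjusted p = 7.3e-09). Of the 23 genes that did not pass the filter, 10 had all P35 samples under all P10 samples and 1 had all of them above. Over all genes under the filter with a value above 0, 16.7% and 14.8% did so. Birc5, which encodes survivin, read 1.41, 0.932 and 1.33 FPKM at P10 and 0.257, 0.269 and 0.322 FPKM at P35. Mki67, a proliferation marker, read 0.292, 0.212 and 0.213 FPKM at P10 and 0.0956, 0.055 and 0.027 FPKM at P35. Of 24 inhibitors and p53 targets Gdf15, Btg2 and Phlda3 rose and Cdkn2a, which encodes the p16 and ARF tumour suppressors, fell and read 2.996, 2.74 and 3.68 FPKM at P10 and 0.429, 0.379 and 0.631 FPKM at P35 (log2 difference -1.48 ± 0.085, adjusted p = 4.3e-15). Cdkn1a, which encodes p21, went from a mean of 128 to 153 FPKM and was not called.

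Fetal and imprinted genes were split, with 3 of 8 tested higher and 3 lower. Sgce, an imprinted sarcoglycan, read 10.6, 9.81 and 10.5 FPKM at P10 and 0.361, 0.561 and 0.524 FPKM at P35 (log2 difference -2.93 ± 0.094, adjusted p = 3.3e-21), and Slc38a4, an imprinted amino acid carrier, fell from 154 to 58.5 FPKM. Igf2bp1, an oncofetal RNA-binding protein, rose from 0.577 to 3.96 FPKM and Phlda2 from 2.82 to 6.81 FPKM, while Afp, alpha-fetoprotein, was low and fell from 3.08 to 0.921 FPKM. Of 20 germline genes only Rhox5, an X-linked homeobox gene, passed the filter, and it rose from 0.0143 to 2.07 FPKM. Of 25 Hox genes none passed it, and 22 were at 0 in all 6 samples.

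Of 19 epithelial junction genes 4 were called, where 7.5% of all genes tested were. Cldn14 fell and read 13.6, 15.004 and 15.6 FPKM at P10 and 1.3, 1.23 and 1.37 FPKM at P35 (log2 difference -2.78 ± 0.10, adjusted p = 1.3e-19), and Cldn3, Cldn2 and Cgn rose, Cldn2 from 10.6 to 25.9 FPKM. Of 15 integrins and adhesion genes Itga7, a laminin receptor chain, rose (log2 difference 1.72 ± 0.076, adjusted p = 7.9e-18). Of 13 mesenchymal genes Sparc rose from 0.119 to 4.93 FPKM and Anxa1 from 4.28 to 9.03 FPKM, the latter difference of 1.00 ± 0.19 (log2, SE) being 0.62 without P10 replicate 2. Of 5 tested gastrointestinal genes 4 were called. Vil1 and Lgals4 rose and Reg3b and Tff1 fell.

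Of 19 tested genes of periportal hepatocytes 5 fell and none rose, among them Ass1, Cps1, Igf1 and Sox9, some of which other lists also hold. Of 20 pericentral genes only 11 passed the filter, and 2 were at 0 in all 6 samples. Of the 11 tested, Cyp2a5 and Cyp2e1 rose and none fell, where 4.31% of all genes tested rose and 3.19% fell. The median log2 difference of the 11 was 0.28, against -0.11 for the periportal genes. At P35, 8 of these 11 and 7 of the 19 were closer to the hepatocyte level, against 44.5% of all genes tested. The remaining lists had 3 calls or fewer each, where 7.5% of all genes tested were called. Of 12 Wnt genes the ligand Wnt10a rose from 2.29 to 9.61 FPKM, and Wnt4 and Fzd1 fell. Of 18 genes of the EGF, HGF and FGF receptors and ligands Fgfr2 rose from 4.996 to 11.3 FPKM. Of 11 chemokines Ccl9 and Cxcl2 rose, Ccl9 from 7.49 to 29.99 FPKM, and Cxcl12 fell from 2.55 to 0.437 FPKM. Of 18 antigen presentation genes Psmb8 and Cd1d1 fell. Of 17 hypoxia genes Car9, of 20 ribosome biogenesis genes Polr1b and of 14 metabolic nuclear receptors Pparg rose, Pparg from 1.75 to 7.46 FPKM. Single rises of this kind are close to the 4.31% of all genes tested that rose. Of 14 G1 cyclins and kinases and their regulators Mycn fell from 4.86 to 1.85 FPKM, and of 14 DNA methylation and chromatin genes none was called.

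The remaining large changes fell outside the lists. The uncharacterised 4930486L24Rik had the largest rise and read 0.172, 0.153 and 0.0884 FPKM at P10 and 93.5, 91.01 and 72.5 FPKM at P35 (log2 difference 6.24 ± 0.074, adjusted p = 1.2e-31), and in the other matured groups it stood at 0.0357 ± 0.0152 FPKM (mouse-2) and 0.279 ± 0.0829 FPKM (clone-1, SD, n = 3 each). Zbtb8b, a zinc finger gene, rose from 0.533 to 30.001 FPKM, Fgfbp1, a carrier of fibroblast growth factors, from 5.04 to 113 FPKM, and Ptgs1, cyclooxygenase 1, from 1.69 to 28.7 FPKM. Among the falls, Fgl1, a liver-secreted fibrinogen-like protein, read 399, 384 and 422 FPKM at P10 and 18.8, 18.9 and 16.9 FPKM at P35 (log2 difference -4.39 ± 0.089, adjusted p = 8.6e-26). Bmyc fell from 26.2 to 0.18 FPKM and Mrap, an accessory protein of melanocortin receptors, from 165 to 10.7 FPKM.

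Markers of other cells were mostly near 0. Of the 16 Kupffer cell and macrophage markers 3 were tested, and 6 were at 0 in all 6 samples, including Clec4f, Vsig4 and Ptprc, which define these cells and blood cells. Csf1r and Cd68 rose, Csf1r reading 3.51, 3.39 and 2.29 FPKM at P10 and 21.3, 17.8 and 20.6 FPKM at P35 (log2 difference 2.38 ± 0.086, adjusted p = 5.6e-20) and Cd68 going from 1.05 to 17.5 FPKM. Under the filter, Adgre1, C1qa, C1qb, Marco and Tyrobp were above 0 only in P35 replicate 3, at 0.0755 FPKM or less. Lyz2 read 0.128, 0 and 0 FPKM at P10 and 0.189, 0.192 and 0.561 FPKM at P35. Fcer1g read 0.0513, 0.0187 and 0.0527 FPKM at P10 and 0.0553, 0 and 0 FPKM at P35. The third tested marker, Cd14, was not called. The summed level of the 16 markers, almost all of it from Csf1r, Cd68 and Cd14, was 20.2 to 24.9 FPKM at P10 and 73.3 to 77.0 FPKM at P35. For 14 endothelial markers it was 2.83 to 3.37 FPKM at P10 and 2.92 to 3.93 FPKM at P35, and for 14 stellate cell and fibroblast markers 2.97 to 3.50 FPKM and 4.34 to 5.67 FPKM. In bulk samples fewer cells of a type and less RNA per cell cannot be told apart.

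The levels were also set beside those of the hepatocytes. These hepatocytes expressed the Y-linked genes Eif2s3y, Kdm5d, Ddx3y and Uty, at means of 4.085, 1.264, 0.6468 and 0.3217 FPKM. In the matured cells of both passages these genes were at 0 in every sample. The part of this difference in the counts below was not tested. A gene was counted as closer at P35 when its mean log2(FPKM + 1) there was nearer to that of the hepatocytes than the P10 mean. This held for 44.5% of all genes tested. Among the genes that rose, 99 of 438 (22.6%) were closer, and among those that fell 149 of 324 (46.0%). Urea cycle and amino acid genes were closer in 8 of 28 and immediate early genes in 13 of 15.

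More genes were called before maturation. In IL6-iHPCs 3522 of the same 10166 genes (34.6%) changed from P10 to P35, 2547 higher (25.1%) and 975 lower (9.59%), with a median log2 difference of 0.41 over all genes. Centring each sample on its median turned this split into 1255 higher and 1602 lower, and quantile normalization into 1388 and 1538, so the direction of the bulk of those genes depends on the scaling. The comparison uses other samples than the one in IL6-iMHs. Across genes both passage differences correlated weakly (Pearson r = 0.277 over 10166 genes, which are not independent replicates).

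Of the 438 genes higher in IL6-iMHs at P35, 154 (35.2%) were also higher in IL6-iHPCs, 244 (55.7%) were not called there and 40 (9.1%) were lower. Of the 324 lower genes, 163 (50.3%) were also lower and 31 (9.6%) higher. These shared genes were 6.05% of the genes higher and 16.7% of those lower in IL6-iHPCs. These shares also depend on the scaling, a check added after seeing the data. With samples centred on their median 27.9% of the higher genes were also higher and 17.2% lower in IL6-iHPCs, and 59.2% of the lower genes also lower. With quantile normalization the same shares were 30.5%, 12.4% and 53.4%. Of the acute phase genes, 14 of 21 were lower at P35 in IL6-iMHs and 20 of 21 in IL6-iHPCs, with a median of -4.44 in the latter. Saa1 in IL6-iHPCs read 1384, 1270.5 and 1036 FPKM at P10 and 9.88, 11.04 and 10.9 FPKM at P35 (log2 difference -6.72 ± 0.19, adjusted p = 2.1e-23).

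**Figure D4:**
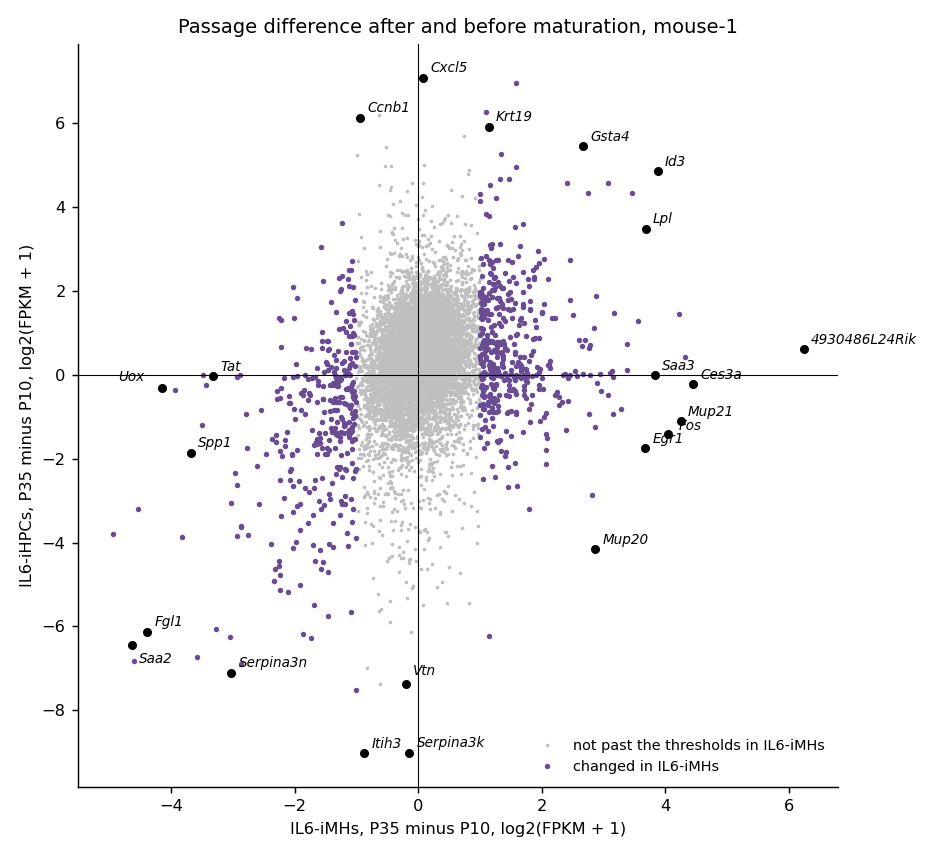
Log2 difference P35 minus P10 on the log2(FPKM + 1) scale for each tested gene in IL6-iMHs (horizontal) and IL6-iHPCs (vertical) of mouse-1, with the 762 genes changed in IL6-iMHs in purple and named genes in black. Saa2, Fgl1 and Serpina3n are low on both axes, Tat and Uox fall along the horizontal axis, and Serpina3k, Itih3 and Vtn fall along the vertical axis.

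The difference between both passage effects was tested itself, and 3526 genes (34.7%) passed, 1065 (10.5%) with a more positive effect in IL6-iMHs and 2461 (24.2%) with a more negative one. With each sample centred on its median the split was 1634 and 1257, and with quantile normalization 1598 and 1364. Serpina3k, Itih3 and Vtn, 3 liver-secreted proteins among the largest positive differences, were lower in IL6-iHPCs at P35 and not called in IL6-iMHs. Serpina3k, a liver serine protease inhibitor, read 5607, 4853 and 6361 FPKM at P10 and 4935, 5552 and 4699.6 FPKM at P35 in IL6-iMHs, and these samples overlapped. In IL6-iHPCs it read 2433, 2957 and 2668 FPKM at P10 and 4.1, 4.62 and 3.88 FPKM at P35. The effects differed by 8.87 ± 0.14 (SE), adjusted p = 1.3e-28. Vtn, vitronectin, differed by 7.17 ± 0.12 (SE), adjusted p = 7.5e-28, and Itih3 by 8.15 ± 0.15 (SE), adjusted p = 8.6e-27.

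Mup20 and Mup3 moved in opposite directions in the 2 states. Mup20, which rose in IL6-iMHs, read 42.4, 22.6 and 30.7 FPKM at P10 and 0.944, 0.694 and 0.722 FPKM at P35 in IL6-iHPCs (log2 difference -4.16 ± 0.23, adjusted p = 1.6e-16), and the effects differed by 7.03 ± 0.32 (SE), adjusted p = 6.6e-18. Mup3 in IL6-iHPCs read 93.1, 63.4 and 68.6 FPKM at P10 and 0, 0 and 0 FPKM at P35, so it was listed at 0 there in all P35 samples, and the effects differed by 7.37 ± 0.21 (SE), adjusted p = 1.7e-22.

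The largest negative differences were mitotic genes and a chemokine. Ccnb1, cyclin B1, read 1.92, 1.02 and 1.56 FPKM at P10 and 0.196, 0.445 and 0.249 FPKM at P35 in IL6-iMHs and 0.377, 0.152 and 0.338 FPKM at P10 and 88.3, 87.3 and 91.4 FPKM at P35 in IL6-iHPCs, a difference between effects of -7.07 ± 0.16 (SE), adjusted p = 9.4e-25. For Ccnb1 all P10 samples of IL6-iHPCs were below all P10 samples of IL6-iMHs. All 22 tested cell cycle genes were higher in IL6-iHPCs at P35 (median 3.71), against 1 in IL6-iMHs. Ube2c, Ccnb2 and Plk1, which also act in mitosis, showed the same contrast. Cxcl5, a neutrophil-attracting chemokine, read 1.82, 0.856 and 1.07 FPKM at P10 and 1.16, 1.9 and 1.06 FPKM at P35 in IL6-iMHs and 0.453, 0.342 and 0.369 FPKM at P10 and 181, 189 and 191 FPKM at P35 in IL6-iHPCs.

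Genes that neighbour each other also moved together, most on distal chromosomes 2 and 13. Positions from RefSeq (GRCm38.p6) were found for 10115 tested genes, which were cut into 243 bins of about 40 neighbouring genes. The regions below were chosen after the bins were seen and are described without a test. On distal chromosome 2, chr2:118663045-181870830, 360 tested genes had a median log2 difference of 0.52, or 1.43-fold, with quartiles of 0.22 and 0.78. Of these genes 319 (88.6%) were above 0. The other 402 genes of chromosome 2 had a median of -0.04. The region held 44 higher genes (12.2%) and 5 lower, so that 10.05% of all higher genes lay in it. Its 9 bins had medians from 0.25 to 0.66. Outside this region and the distal bin of chromosome 13, the other 233 bins had medians from -0.31 to 0.36, of which 13 were above 0.2 and 17 below -0.2. The highest of them, on chromosome 17, chr17:33810523-34985891, had a median of 0.36 with 35 of 43 genes above 0. Chromosome 15 held 5 of the 13, chromosome 7 held 3 and chromosome 11 held 2. The lowest of the 233 was on chromosome 4, and chromosomes 6 and 10 had bins down to -0.30.

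The shift was alike in the 3 P35 samples, which were among those used to choose the region. Relative to the P10 mean and to all genes, the region's median was 0.52, 0.52 and 0.51 in the P35 samples. In the P10 samples, each set against the mean of the other P10 samples, it was between -0.00021 and 0.0097. In IL6-iMHs of mouse-2 it was 0.040 to 0.053, in clone-1 0.076 to 0.11, and in IL6-iHPCs of mouse-1 at P35, against their own P10 mean, 0.048 to 0.077. Hnf4a, Cebpb, E2f1, Id1, Jag1, Gss, Polr1b and Ube2c, all named by the rule, lie in it, as do Lama5 and Chac1.

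Distal chromosome 13, chr13:100697024-119791477, moved down. Its 44 tested genes had a median of -0.58, with 39 of 44 below 0, against -0.04 for the other 313 genes of that chromosome. No gene there was called higher and 2 were lower. The 3 P35 samples gave -0.52 to -0.65 relative to all genes, IL6-iMHs of mouse-2 at P10 -0.26 to -0.38 and clone-1 0.10 to 0.13. Il6st and Ccnb1 are among its genes.

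**Figure D5:**
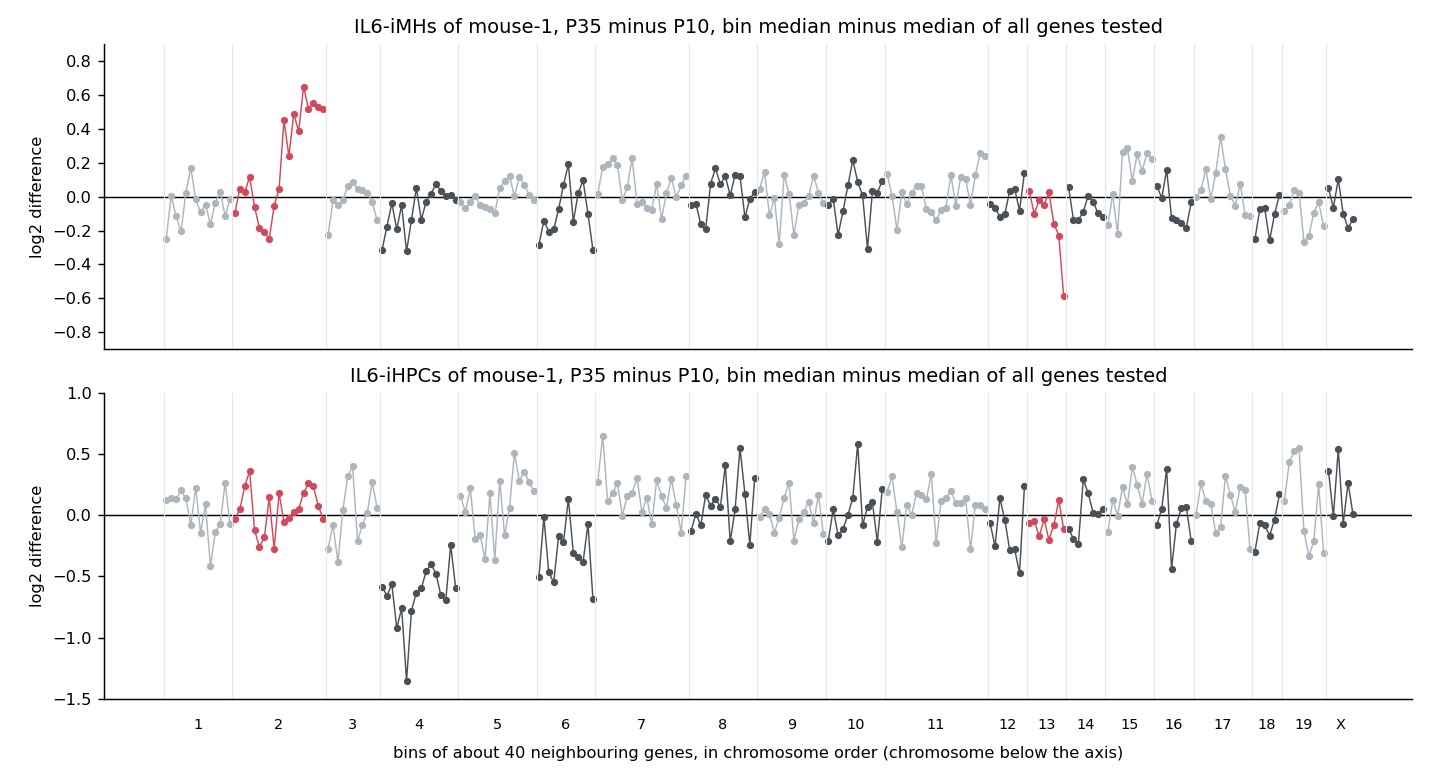
Median log2 difference P35 minus P10 of bins of about 40 neighbouring tested genes, minus the median of all genes tested, in chromosome order, for IL6-iMHs (upper) and IL6-iHPCs (lower) of mouse-1, with chromosomes 2 and 13 in red. In IL6-iMHs the highest bins are on distal chromosome 2 and the lowest is the last bin of chromosome 13, and in IL6-iHPCs chromosome 4 holds the lowest bin.

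IL6-iHPCs at P35 showed a different map. Their distal chromosome 2 lay 0.059 above the median of all genes, while chromosome 4, with 645 tested genes, lay 0.62 below it. In IL6-iMHs chromosome 4 had a median of -0.08. The regional shifts of matured and unmatured P35 cells therefore did not match, although both carry the label of the same line and passage. DNA copy number was not measured in these files, and the part of any such change in these shifts was not tested.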

How the data were processed

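RNA of 33 samples (11 groups of 3) was sequenced from poly(A) libraries as paired-end reads. The table deposited by the authors holds 1 value per gene and sample, whose unit was read as FPKM from the values and the tools. The submitters' processing notes name mm10, TopHat 1.4.1 and Cufflinks 1.3.0, with no role stated for each. Strand handling is not given in the sources used here. Low values step in whole reads: with a tolerance of 0.05 reads, 100% of values of 18830 genes with reads came out whole, which gave the depth. No other column was unmapped (0 columns of no sample).

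Genes at 1 FPKM or more in 3 of the 6 samples were tested with limma 3.58.1 in R 4.3.3 on log2(FPKM + 1), with a variance trend, 1 mean per group over all 33 samples, and Benjamini-Hochberg adjustment over 10166 genes. A gene was called at adjusted p under 0.05 and at least 2-fold on that scale, which understates changes of low genes. Voom on the recovered reads called 1135 genes. Errors after ± are SE for log2 differences. On simulated data with 200 changed genes among 10166, with log2 changes of 1.5, 2 and 3 (none nearer 2-fold), for the comparison in IL6-iMHs, 200 were called and 0 others. The changed genes were drawn only from those with a mean log2(FPKM + 1) above 3, so this does not show how often changes of lower genes are called. An exact permutation test of 3 against 3 cannot go below p = 0.10, so none is given.

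Members and gene lists were chosen with earlier results of these data known, and no set test was made. Named genes were the 12 largest rises and 12 largest falls, the 2 largest of each direction per list, Alb, Hnf4a, Cyp1a2, Fah, Glul, Sox9, Krt19, Ccnd1 and Mki67, the 5 largest differences of each sign between both passage effects, and other list members where a list's description needed their level. Some genes that this rule selects are not reported here. Symbols of 27 rows had been turned into dates (17 tested) and stayed unnamed. Alternatives were another pseudocount, filters, scalings, sample sets, a replicate block, voom, and leaving out each mouse-1 sample of both states and passages. Python 3.11.15 drew the plots with matplotlib 3.10.9.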

Additional observations from a re-analysis of the deposited data

Results flagged for a closer look

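The effect of passage differed between IL6-iMHs and IL6-iHPCs of mouse-1 at 3526 of 10166 genes, by a test of the difference itself in limma (P35 minus P10 in IL6-iMHs, minus the same in IL6-iHPCs). The largest positive log2 differences were Serpina3k (8.87), Itih3 (8.15), Mup3 (7.37), Vtn (7.17) and Mup20 (7.03). The largest negative ones were Ccnb1 (-7.07), Cxcl5 (-7.00), Ube2c (-6.83), Ccnb2 (-6.24) and Plk1 (-5.95).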

How the results depend on the processing

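The count of 762 changed genes in IL6-iMHs moved with the fold threshold, to 6372 with none, 2079 at 1.5-fold and 151 at 4-fold. The same thresholds gave 8744, 5844 and 776 genes in IL6-iHPCs and 8110, 5906 and 785 for the difference of both effects. With a pseudocount of 0.1 it was 1087, with voom on recovered reads 1135, with a filter at 5 FPKM 551 and with quantile normalization 707. Leaving out single samples gave 751 to 778 in IL6-iMHs, 3443 to 3674 in IL6-iHPCs, 3429 to 3722 for the difference and 637 to 896 for mouse-2 against mouse-1, where only P10 samples of mouse-1 were left out. That last count of 733, added after seeing the data, became 438 with samples centred on their median, 303 with quantile normalization, 1514 with a pseudocount of 0.1 and 1679 with voom.

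The replicate numbers did not pair the samples (r of deviations 0.006, -0.58 and -0.16 for numbers 1, 2 and 3 in IL6-iMHs), and with a replicate block 761, 3522 and 3526 genes were called in IL6-iMHs, in IL6-iHPCs and for the difference. A fit of the mouse-1 samples alone called 3527 genes for the difference. Of 199 called named genes, 174 held their call in every alternative that tested them. The other 25 lost it in at least 1, with sizes then between 0.62 and 1.00 on the log2 scale. The filter at 5 FPKM tested only 183 of the 219 named genes. Quantile normalization lost 18, among them Krt19, Mup3, Cfb, C1ra, C2 and Tef, and centring on the median lost 5. Without P10 replicate 1, Afp, Col4a1, Fasn and Gstm3 fell under 2-fold (0.88 to 0.98). Without P10 replicate 2, which stood apart, 9 did, among them Abcc4, Anxa1, Bcl3, Gss, Phlda2, Phlda3 and Tead4 (0.62 to 0.99). Without P10 replicate 3, 7 did, Abcc4, Amotl2, Bcl3, C2, Col4a1, Col4a5 and Fgfr2 (0.89 to 0.99). Leaving out P35 replicates lost, among others, Abcc4, Anxa1, Car9, Col4a1, Fgfr2 and Tead4 (replicate 1), Bcl3, Ddit4, Fosb, Gss and Phlda2 (replicate 2) and Abcc4, Amotl2, Col4a1, Col4a5, Fasn and Tead4 (replicate 3). Ccnb1, Ccnb2 and Plk1 became called with a pseudocount of 0.1 and with voom, Ccnb1 also with quantile normalization and without P10 or P35 replicate 2, and Ccnb2 with both scalings and without P10 replicate 2 or P35 replicate 3. No named gene reversed. Of 50 list medians 42 held their sign, and that of the cell cycle list ran from -0.46 to 0.51. The median of distal chromosome 2 ran from 0.47 to 0.58 and that of distal chromosome 13 from -0.74 to -0.55 over 15 settings. The limit on these results is that the samples are technical repeats of 1 line. Low genes near 1 FPKM move less on the log2(FPKM + 1) scale than their ratio.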
